A study of Mus musculus with 24 samples.

Results

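Basal cells and luminal progenitor cells of the pubertal mouse mammary gland were each set against luminal hormone-sensing cells, to find the genes in which the hormone-sensing cells stood apart from both of the other epithelial populations. A gene was taken as a member when it passed the test in both contrasts, with an adjusted p under 0.05, and in the same direction. By this rule 6090 of 18109 genes tested were members, 3068 higher and 3022 lower in basal and progenitor cells than in hormone-sensing cells. The data are 24 bulk RNA-seq libraries of pubertal mice, in 12 groups of 2. The tissue had been microdissected into TEBs (terminal end buds, at whose tips the ducts elongate) and ducts, and the cells were sorted by flow cytometry as lineage-negative and EpCAM+.

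The 8 basal libraries came from the gate with high CD29, an integrin subunit, in the Elf5-rtTA-IRES-GFP model and in the PR-cre model, which carries YFP under a lox-stop-lox at Rosa26, from TEBs and from ducts. The 8 progenitor libraries were luminal GFP-positive cells of the Elf5 model and luminal YFP-negative cells of the PR-cre model, in both tissues. The 8 hormone-sensing libraries were luminal YFP-positive cells of the PR-cre model and luminal GFP-negative cells of the Elf5 model, in both tissues. GFP reports current expression from the Elf5 allele, whereas YFP marks every cell in which PR-cre has acted and that cell's descendants. The YFP-negative and GFP-negative gates are defined by the absence of signal, so each holds any luminal cell that did not carry the reporter. The labels give the stage as pubertal and do not state whether replicate libraries are from different animals. The p-values therefore rest on variation among libraries that may be technical.

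Estrogen and progesterone act on the mammary epithelium largely through the minority of luminal cells that carry their receptors. These hormone-sensing cells secrete paracrine factors such as the EGF family ligand amphiregulin, Wnt4 and RANKL, and neighbouring luminal progenitors and basal cells, which carry the matching receptors, are the cells that respond. Basal cells form the outer, contractile and matrix-bound layer of the duct, and luminal progenitors give rise to the milk-secreting alveolar cells.

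The genes behind the gates were read first as a check of the labels, and are no finding. Elf5 ran from 410.1 to 1657 CPM (counts per 1e6 counts) in progenitor libraries and from 15.03 to 87.3 CPM in hormone-sensing libraries. Pgr, the progesterone receptor, had 13.2 to 73.3 CPM in progenitor and 202.3 to 634.8 CPM in hormone-sensing libraries. CD29 is encoded by Itgb1, at 1269 to 1574 CPM in basal and 497.7 to 712.8 CPM in hormone-sensing libraries. No library went against its label. Summed over 14 markers of each population, hormone-sensing markers reached 74.0 to 234.9 CPM in basal, 680.2 to 1632.6 CPM in progenitor and 7635.4 to 12569.3 CPM in hormone-sensing libraries. Luminal progenitor markers summed to 693.3 to 1447.3 CPM in basal, 6709.1 to 21042.6 CPM in progenitor and 192.6 to 923.4 CPM in hormone-sensing libraries. The value of 923.4 CPM belonged to YFP-positive duct replicate 1, lay within the basal range, and its part in the results was not tested.

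Total counts per library, in units of 1e6, ran from 31.3 to 52.5. A pair of luminal libraries carried transcripts of stratified skin epithelium. Keratinocyte markers summed to 2162.3 CPM in GFP-negative duct replicate 2, a hormone-sensing library, and to 380.7 CPM in YFP-negative TEB replicate 2, a progenitor library. In the remaining libraries the sum was 7.2 to 21.3 CPM in basal, 5.1 to 53.9 CPM in progenitor and 31.8 to 197.6 CPM in hormone-sensing libraries. The same hormone-sensing library held the basal keratins Krt5, at 1962 CPM, and Krt14, at 1115 CPM, against medians of 3.05 and 1.42 CPM over the 8. Counts for each contrast, model and tissue, and the counts of gene lists that move, are also given without this pair.

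Each population differed from hormone-sensing cells in a large part of the genes tested. In bulk samples, fewer cells of a type and less RNA per cell cannot be told apart. In basal cells, 6316 genes (34.9% of the genes tested) were higher and 5627 (31.1%) lower than in hormone-sensing cells. In progenitor cells, 4782 (26.4%) were higher and 4452 (24.6%) lower. With the pair of libraries left out these counts were 6551 and 5630 in basal cells and 4665 and 4459 in progenitor cells. The genes called in both contrasts made up 16.9% of all genes on the higher side and 16.7% on the lower side. The contrasts share the 8 hormone-sensing libraries, so a deviation of those libraries enters both, and the count called in both is given only as the rule defines it. Tests were edgeR quasi-likelihood F-tests with Benjamini-Hochberg adjustment over all genes. The median log2 fold change of all genes was 0.07 in the basal and 0.04 in the progenitor contrast.

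Without the pair of libraries with keratinocyte transcripts, 3113 genes were higher and 3043 lower in both contrasts, and 2807 and 2873 of the members kept their call. For 694 genes (3.83% of those tested) all 16 basal and progenitor libraries lay above all 8 hormone-sensing libraries in CPM, and for 955 (5.27%) all lay below, against 953 above and 1209 below without the pair. With fewer libraries, separation is easier to reach. All of the 694 and all but 2 of the 955 were members, which adds no support, since separation and membership come from the same libraries.

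The mouse models share no library, which allows the rule to be applied in each. The Elf5 model alone gave 1837 genes higher in both (10.6% of 17335 tested) and 1717 lower (9.90%). The PR-cre model alone gave 2631 higher (15.4% of 17088 tested) and 2621 lower (15.3%). On the higher side 1336 genes were shared, which is 72.7% of the Elf5 list and 50.8% of the PR-cre list. On the lower side 1398 were shared, 81.4% and 53.3% of the lists, and 0 genes were called in opposite directions. TEB libraries alone gave 2900 higher (16.9% of 17195) and 2995 lower (17.4%), and duct libraries alone gave 2144 higher (12.4% of 17245) and 2047 lower (11.9%). Both models and both tissues, each on its own, called 1189 genes higher and 1280 lower. The genes higher and lower in both without the pair were 1899 and 1863 in the Elf5 model, 2401 and 2441 in the PR-cre model, 2764 and 2822 in TEBs, and 2258 and 2285 in ducts.

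As among all genes tested, many members were not at equal levels in the basal and progenitor cells. Over all genes, 5119 (28.3%) were higher and 5206 (28.7%) lower in basal than in progenitor cells. Of the 3068 members on the higher side, basal cells exceeded progenitor cells in 1131, fell below them in 443, and did not pass the test in 1494. The median log2 fold change of these members was 1.45 in basal and 1.17 in progenitor cells, and 1521 of them (49.6%) changed by more than 2-fold in both. Among the 3022 members on the lower side, basal cells lay below progenitor cells in 1393, above them in 287, and did not pass the test in 1342. The medians of these members were -1.19 and -0.85, and 1217 (40.3%) changed by more than 2-fold in both. Basal and progenitor cells lay within 2-fold of each other in 2156 members on the higher side and 2199 on the lower.

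**Figure D1:**
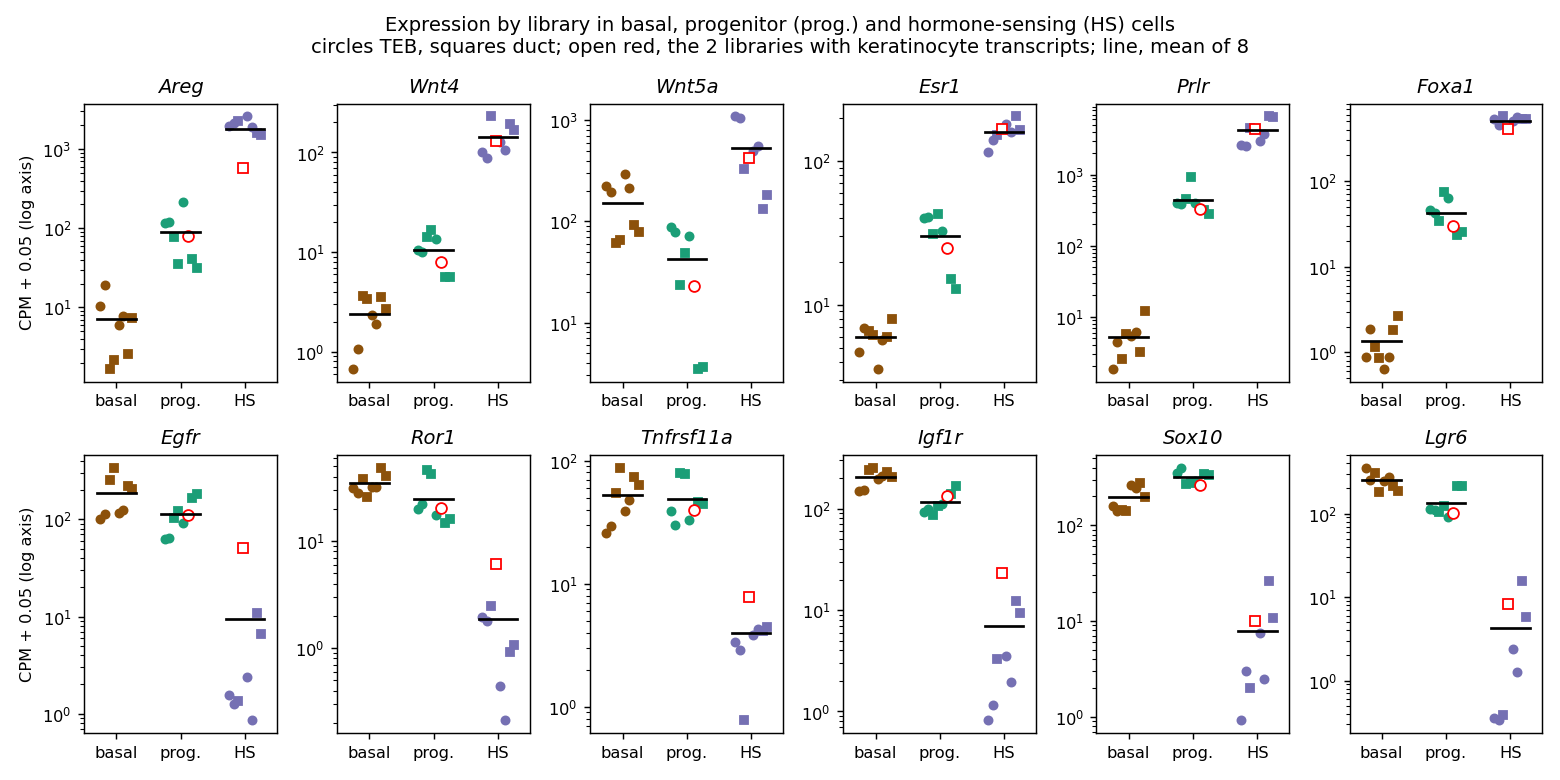
Expression of 12 genes in each library on a log axis (CPM + 0.05), in basal, progenitor (prog.) and hormone-sensing (HS) cells from left to right; circles are TEB, squares duct, open red symbols the 2 libraries with keratinocyte transcripts, and lines the mean of 8 libraries. Areg reaches 19.2 CPM in basal, 211.8 CPM in progenitor and 2601 CPM in hormone-sensing libraries, and Egfr stays at or below 50.9 CPM in hormone-sensing libraries.

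Nuclear receptors for steroids and other lipid hormones and their cofactors were more often lower than higher in basal and progenitor cells. Among 18 listed genes, 9 were lower in both (Esr1, Pgr, Nr3c2, Rara, Foxa1, Gata3, Tbx3, Cited1 and Nrip1) and 4 were higher in both (Nr3c1, Vdr, Rarb and Tfap2c). The list's median log2 fold change was -1.24 in basal and -0.65 in progenitor cells. Pgr was also the basis of the PR-cre gate. Esr1, the estrogen receptor alpha gene, ran from 3.53 to 7.93 CPM (median 6.02) in basal, from 12.8 to 43.1 CPM (median 31.9) in progenitor and from 117 to 206 CPM (median 161) in hormone-sensing libraries. The groups did not overlap, and log2 fold changes were -4.79 ± 0.25 (SE, adjusted p = 1.2e-12) and -2.46 ± 0.23 (adjusted p = 2e-08).

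Cited1, a transcriptional cofactor of the estrogen receptor, had 0.456 to 2.16 CPM (median 1.47) in basal, 13.1 to 65.8 CPM (median 40.7) in progenitor and 345 to 753 CPM (median 607) in hormone-sensing libraries. Its log2 fold changes were -8.62 ± 0.37 and -3.86 ± 0.30. Foxa1, the forkhead factor that opens chromatin for the estrogen receptor, ran from 0.591 to 2.58 CPM (median 0.966) in basal, from 23.6 to 74.1 CPM (median 38.3) in progenitor and from 402 to 572 CPM (median 527) in hormone-sensing libraries. Every progenitor library thus lay between the other populations for both genes. Foxa1 fell by 8.65 ± 0.38 in basal and by 3.58 ± 0.29 in progenitor cells on the log2 scale (adjusted p = 7.6e-14 and 3.6e-09).

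The opposite pattern was found for Tfap2c, which encodes the transcription factor AP-2 gamma. It had 311 to 459 CPM (median 365) in basal, 135 to 179 CPM (median 156) in progenitor and 7.06 to 44.6 CPM (median 13.7) in hormone-sensing libraries. The highest hormone-sensing value was that of the library with the most keratinocyte transcripts, and the groups did not overlap. Log2 fold changes were 4.53 ± 0.25 and 3.33 ± 0.24 (adjusted p = 2.6e-12 and 5.4e-10). The glucocorticoid receptor gene Nr3c1 and the vitamin D receptor gene Vdr were higher in both as well, with log2 fold changes of 1.91 and 2.01 for Nr3c1 and 1.85 and 1.97 for Vdr.

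The secreted signals of hormone-sensing cells were examined next, in a list of 12 genes of which 11 passed the filter on low counts. Areg, Wnt4 and Wnt5a were lower in both populations and Igfbp5 was higher, and the list's medians were 0.67 in basal and -0.83 in progenitor cells. With the pair left out, 4 of the 11 were lower in both. Areg, which encodes amphiregulin (Entrez 11839, mm10 chromosome 5, 91139599 to 91148432), ran from 1.62 to 19.2 CPM (median 6.65) in basal, from 31.6 to 212 CPM (median 79.0) in progenitor and from 577 to 2601 CPM (median 1954) in hormone-sensing libraries. The lowest hormone-sensing value, in GFP-negative duct replicate 2, was still above every other library. Areg fell by 8.27 ± 0.48 in basal and by 4.53 ± 0.40 in progenitor cells on the log2 scale (adjusted p = 5.5e-12 and 1.1e-08).

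Wnt4, a Wnt ligand induced by progesterone, had 0.624 to 3.61 CPM (median 2.44) in basal, 5.56 to 16.6 CPM (median 10.2) in progenitor and 87.5 to 231 CPM (median 128) in hormone-sensing libraries, with log2 fold changes of -5.99 ± 0.30 and -3.72 ± 0.27. Wnt5a, a ligand of non-canonical Wnt signalling, had 61.7 to 293 CPM (median 143) in basal, 3.43 to 87.6 CPM (median 36.1) in progenitor and 133 to 1096 CPM (median 461) in hormone-sensing libraries. For Wnt5a basal libraries overlapped with both other populations, and progenitor libraries lay below every hormone-sensing library, with log2 fold changes of -1.58 ± 0.37 and -3.82 ± 0.40 (adjusted p = 0.00082 and 1.1e-07). Tnfsf11, which encodes RANKL, averaged 0.198 CPM in basal, 0.0179 CPM in progenitor and 0.316 CPM in hormone-sensing libraries, close to the floor of 3 counts (0.058 to 0.097 CPM per library), and no direction is drawn from it.

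Igfbp5, a secreted binding protein of insulin-like growth factors, went the other way. It ran from 1462 to 11650 CPM (median 4702) in basal, from 3649 to 18360 CPM (median 10110) in progenitor and from 25.4 to 994 CPM (median 114) in hormone-sensing libraries. No library overlapped with the hormone-sensing range, and the log2 fold changes were 4.58 ± 0.40 and 5.65 ± 0.42.

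Receptors for these signals were more often higher than lower in the other populations. Of 20 receptor genes, 9 were higher in both (Egfr, Tnfrsf11a, Fzd1, Fzd7, Fzd8, Ror1, Lrp6, Calcrl and Cxcr4) and 1, Erbb2, was lower in both; 11 were higher without the pair of libraries. Median log2 fold changes were 2.94 in basal and 0.69 in progenitor cells. Egfr, the EGF receptor to which amphiregulin binds (Entrez 13649, mm10 chromosome 11, 16752203 to 16913907), ran from 100.4 to 339.7 CPM (median 165) in basal, from 62.0 to 180.1 CPM (median 107) in progenitor and from 0.807 to 50.9 CPM (median 1.92) in hormone-sensing libraries. The value of 50.9 CPM belongs to the library with the most keratinocyte transcripts, and the remaining 7 hormone-sensing libraries lay far lower. Log2 fold changes were 4.91 ± 0.60 and 4.33 ± 0.60 (adjusted p = 4.1e-07 and 4e-06).

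Tnfrsf11a encodes RANK, the receptor of RANKL. It had 25.8 to 87.5 CPM (median 50.7) in basal, 29.8 to 79.0 CPM (median 42.2) in progenitor and 0.728 to 7.71 CPM (median 3.93) in hormone-sensing libraries, and basal and progenitor ranges overlapped. Its log2 fold changes were 3.67 ± 0.30 and 3.57 ± 0.30 (adjusted p = 1.1e-09 and 4.9e-09). Ror1, a receptor for Wnt5a, had 25.6 to 48.4 CPM (median 31.9) in basal, 14.8 to 46.1 CPM (median 19.9) in progenitor and 0.161 to 6.09 CPM (median 1.39) in hormone-sensing libraries. Calcrl, the receptor subunit for calcitonin gene-related peptide and adrenomedullin, was low throughout, with medians of 4.34, 6.32 and 0.461 CPM in basal, progenitor and hormone-sensing libraries. The ERBB2 gene Erbb2 averaged 35.0 CPM in basal, 114 CPM in progenitor and 200 CPM in hormone-sensing libraries.

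Promoters are shown for a pair of genes on opposite sides of the comparison. The Foxa1 promoter (RefSeq GRCm38.p6, chr12:57546062-57546361, minus strand) and that of Tnfrsf11a (chr1:105780473-105780772, plus strand) run from 250 bases before to 50 bases after the gene start. Capitals mark matches, on either strand, to the SOX motif ACAAAG and the forkhead motif TGTTTAC in Foxa1, where adjacent matches overlap, and to the TEAD motif GGAATG in Tnfrsf11a.
Foxa1: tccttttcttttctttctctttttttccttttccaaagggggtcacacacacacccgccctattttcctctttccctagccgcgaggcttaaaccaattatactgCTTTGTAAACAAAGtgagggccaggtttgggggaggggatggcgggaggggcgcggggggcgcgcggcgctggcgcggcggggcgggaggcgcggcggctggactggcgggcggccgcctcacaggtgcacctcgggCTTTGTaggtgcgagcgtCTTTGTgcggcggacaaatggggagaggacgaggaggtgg
Tnfrsf11a: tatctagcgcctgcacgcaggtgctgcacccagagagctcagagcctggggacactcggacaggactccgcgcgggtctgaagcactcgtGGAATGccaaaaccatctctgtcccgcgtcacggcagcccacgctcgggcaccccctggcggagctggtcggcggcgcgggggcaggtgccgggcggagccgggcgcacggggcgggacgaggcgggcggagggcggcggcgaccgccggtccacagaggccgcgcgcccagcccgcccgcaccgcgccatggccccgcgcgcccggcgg
The SOX motif was in 14.1% of 2932 promoters of members on the higher side, 14.2% of 2954 on the lower side and 14.8% of 16621 promoters of all genes tested with a RefSeq promoter. The forkhead motif was in 2.35%, 2.91% and 2.65% of the same sets, and the TEAD motif in 13.1%, 12.3% and 13.1%. The estrogen receptor motif AGGTCA was in 12.6%, 13.8% and 13.4%, the GATA motif AGATAA in 5.76%, 7.41% and 7.08%, and the AP-1 motif TGANTCA in 4.81%, 7.18% and 5.91%.

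Genes of lactogenic and growth hormone signalling, receptors and intracellular members alike, had members on both sides. Of 13 listed genes, 4 were higher in both (Ghr, Igf1r, Irs1 and Irs2) and 2 lower in both (Prlr and the kinase gene Jak2). The other 7 were not called in both, and the medians were 0.43 and -0.56. Of all genes tested, 16.9% were higher and 16.7% lower in both. Prlr, the prolactin receptor, ran from 1.80 to 11.8 CPM (median 4.85) in basal, from 280.1 to 927 CPM (median 395) in progenitor and from 2528 to 6618 CPM (median 4044) in hormone-sensing libraries. The 3 populations formed separate ranges, and Prlr fell by 9.67 ± 0.43 in basal and by 3.18 ± 0.32 in progenitor cells on the log2 scale.

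Igf1r, the receptor of insulin-like growth factor 1, had 149.8 to 253 CPM (median 207) in basal, 85.7 to 168 CPM (median 109) in progenitor and 0.769 to 23.0 CPM (median 3.36) in hormone-sensing libraries. Log2 fold changes were 5.24 ± 0.49 and 4.47 ± 0.48 (adjusted p = 7.4e-09 and 1.3e-07). Irs2, an adaptor of that receptor, had medians of 279 CPM in basal, 202 CPM in progenitor and 34.3 CPM in hormone-sensing libraries, and no hormone-sensing library exceeded 91.3 CPM. Ghr, the growth hormone receptor, had medians of 46.6, 67.8 and 12.6 CPM in basal, progenitor and hormone-sensing libraries. Its ranges overlapped through GFP-negative duct replicate 2 alone, at 53.8 CPM. Without the pair of libraries with keratinocyte transcripts, 3 of the 13 were higher and 3 lower.

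Transcription factors of the SOX family and of mammary stem and progenitor cells were more often higher than lower outside the hormone-sensing gates. Among 24 genes, 10 were higher in both (Sox5, Sox10, Sox13, Bcl11a, Nfib, Nfix, Id1, Id2, Tcf7l1 and Runx2), 15 without the pair of libraries, and 3 were lower (Sox4, Sox9 and Id3). Medians were 2.94 in basal and 1.72 in progenitor cells. Sox10, a neural crest factor also found in mammary progenitor and basal cells, ran from 139.9 to 277 CPM (median 176) in basal, from 261 to 399 CPM (median 315) in progenitor and from 0.871 to 26.0 CPM (median 5.25) in hormone-sensing libraries, with log2 fold changes of 4.90 ± 0.47 and 5.66 ± 0.49. Sox5, a SOX factor without a transactivation domain, had medians of 18, 15.3 and 0.252 CPM in basal, progenitor and hormone-sensing libraries.

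Runx2, a factor best known from bone, had 40.5 to 63.8 CPM (median 53.4) in basal, 6.37 to 77.7 CPM (median 21.0) in progenitor and 0.175 to 5.23 CPM (median 0.426) in hormone-sensing libraries. Tcf7l1, a T-cell factor of the Wnt pathway, had medians of 79.0, 25.3 and 1.48 CPM in basal, progenitor and hormone-sensing libraries and log2 fold changes of 5.68 ± 0.47 and 4.04 ± 0.45. Neither gene overlapped between hormone-sensing and other libraries. Sox9, by contrast, averaged 106 CPM in basal, 241 CPM in progenitor and 627 CPM in hormone-sensing libraries. Schwann cells also carry Sox10: of 9 Schwann cell markers tested, 5 were higher in both, among them Sox10, Egr2, Pmp22 and S100b, and the list summed to 567.2 to 1368.2 CPM in basal, 423.5 to 572.0 CPM in progenitor and 59.8 to 233.4 CPM in hormone-sensing libraries. The marker Foxd3 did not pass the filter.

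Among 21 tested genes of the Wnt pathway and its feedback, 9 were higher in both and 1, the ligand gene Wnt7b, was lower in both, with 11 higher without the pair of libraries. Medians were 4.62 in basal and 1.35 in progenitor cells. Lgr6, an R-spondin receptor that marks epithelial stem cells, had 182 to 355 CPM (median 248) in basal, 91.8 to 214 CPM (median 112) in progenitor and 0.284 to 15.6 CPM (median 1.79) in hormone-sensing libraries, with log2 fold changes of 6.42 ± 0.67 and 5.29 ± 0.63 (adjusted p = 4.4e-08 and 6.1e-07). Lgr4, Lgr5, Rnf43, Nkd2, Tcf7l1, Tcf7l2, Dkk3 and Sfrp1 were the other members on this side.

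Readouts of MAP kinase signalling formed the list with the largest share of members on the higher side, 12 of 18, with 2 lower (Spred3 and Dusp4). Medians were 1.89 in basal and 1.43 in progenitor cells. Spry2, a feedback inhibitor of receptor tyrosine kinases, ran from 76.8 to 215 CPM (median 105) in basal, from 65.1 to 181 CPM (median 104) in progenitor and from 12.7 to 22.7 CPM (median 15.4) in hormone-sensing libraries. Basal and progenitor libraries shared a range, well apart from hormone-sensing libraries, and log2 fold changes were 2.93 ± 0.23 and 2.74 ± 0.23 (adjusted p = 6.6e-10 and 4.3e-09).

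Etv5, an ETS factor downstream of FGF receptors, had medians of 259, 68.8 and 12.4 CPM in basal, progenitor and hormone-sensing libraries, with log2 fold changes of 4.17 ± 0.25 and 2.22 ± 0.23. Spry4, a relative of Spry2, had medians of 56.7, 32.6 and 7.19 CPM and log2 fold changes of 3.24 ± 0.19 and 2.18 ± 0.18. Dusp5, a nuclear phosphatase of ERK, had medians of 73.8, 126 and 14.8 CPM, and its hormone-sensing libraries did not overlap with the others. The early response gene Egr1 averaged 3782 CPM in basal, 3572 CPM in progenitor and 899.6 CPM in hormone-sensing libraries.

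Fgfr2, the main FGF receptor of mammary epithelium, was the member of the FGF list that fell in both populations. It ran from 285 to 429.7 CPM (median 359) in basal, from 24.3 to 258 CPM (median 99.6) in progenitor and from 1037 to 1741 CPM (median 1175) in hormone-sensing libraries. No library overlapped with the hormone-sensing range, and Fgfr2 fell by 1.74 ± 0.29 in basal and by 3.72 ± 0.32 in progenitor cells on the log2 scale (adjusted p = 2.5e-05 and 6.8e-09). Of the 14 genes of this list, 3 were higher in both (Fgfr4, Fgf2 and Flrt3), and Fgf2 averaged at most 1.65 CPM in any population.

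**Figure D2:**
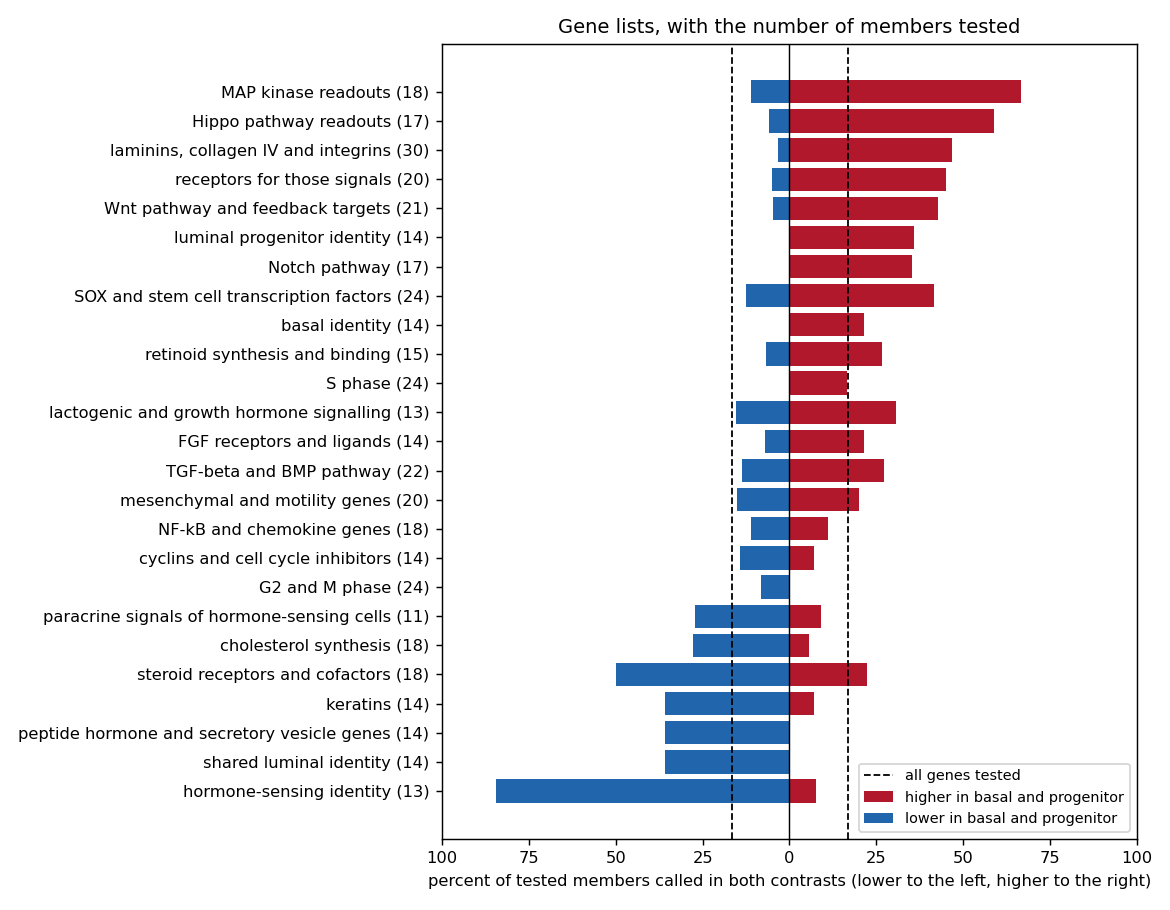
Percent of the tested members of each gene list called in both contrasts, higher to the right (red) and lower to the left (blue), with the number tested in brackets; dashed lines mark all genes tested, at 16.9% and 16.7%. The MAP kinase list has 12 of 18 members on the higher side. The hormone-sensing identity list has 11 of 13 on the lower side and 1 on the higher side. It holds markers of the reference population, Pgr among them, so its place is a check of the labels and no finding.

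Of 17 readouts of the Hippo pathway, which senses cell shape and adhesion, 10 were higher in both and 1, the tissue factor gene F3, was lower in both (medians 1.98 and 0.89), with 11 higher without the pair of libraries. Wwtr1, which encodes the pathway's effector TAZ, had 188 to 461 CPM (median 295) in basal, 252 to 313 CPM (median 257) in progenitor and 74.8 to 114 CPM (median 84.4) in hormone-sensing libraries, with log2 fold changes of 1.74 ± 0.12 and 1.64 ± 0.12. Ccn1, a matricellular target of the pathway, had medians of 1005, 610 and 114 CPM in basal, progenitor and hormone-sensing libraries. Its ranges overlapped through a single library, GFP-negative duct replicate 2 at 459 CPM. Ccn2, the connective tissue growth factor gene, stood at 73.5 CPM in the same library and at 5.99 CPM or less in the other 7 hormone-sensing libraries, against 299 to 1287 CPM in basal and 12.4 to 189.9 CPM in progenitor libraries.

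Basement membrane genes and integrins were higher in basal cells as a group and in progenitor cells in part. Among 30 genes, 14 were higher in both and 1, the laminin chain gene Lama5, was lower in both, with medians of 2.51 and 0.94, and 13 were higher without the pair of libraries. In the basal contrast alone 25 of the 30 were higher, against 15 in the progenitor contrast, where 8 were lower. Lama4, the alpha 4 laminin chain, had 59.3 to 81.2 CPM (median 73.7) in basal, 41.0 to 142 CPM (median 99.7) in progenitor and 1.204 to 4.93 CPM (median 1.85) in hormone-sensing libraries. Itgb8, an integrin subunit that activates latent TGF-beta, had medians of 40.5, 52.8 and 1.47 CPM in basal, progenitor and hormone-sensing libraries. Both had log2 fold changes above 4 in each contrast (Lama4, 4.87 ± 0.34 and 5.23 ± 0.35, and Itgb8, 4.14 ± 0.32 and 4.83 ± 0.33).

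In the Notch pathway 6 of 17 genes were higher in both (medians 1.01 and 1.22). Maml2, a coactivator of Notch, had 56.4 to 117 CPM (median 76.5) in basal, 65.3 to 128 CPM (median 95.4) in progenitor and 6.50 to 18.7 CPM (median 12.4) in hormone-sensing libraries, with log2 fold changes of 2.80 ± 0.16 and 3.05 ± 0.16. Hey1, a Notch target, had 9.36 to 36.1 CPM (median 21.7) in basal, 60.6 to 605 CPM (median 299) in progenitor and 1.40 to 50.2 CPM (median 4.48) in hormone-sensing libraries, so that only the progenitor range lay clear of the others. Its basal contrast (log2 1.72 ± 0.57, adjusted p = 0.012) was lost when each contrast was fitted on its own 16 libraries (adjusted p = 0.073).

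The TGF-beta and BMP list of 22 genes had 6 members higher and 3 lower in both (medians 1.00 and 0.12). Tgfb2, a TGF-beta ligand, had medians of 23.3, 45.3 and 0.562 CPM in basal, progenitor and hormone-sensing libraries. Bambi, a decoy receptor of the family, had medians of 73.8, 24.6 and 1.32 CPM. Neither overlapped with the hormone-sensing range. Inhba, which encodes the activin A subunit, was lower, with medians of 0.429, 0.848 and 12.3 CPM, and the receptor Tgfbr2 and the ligand Tgfb1 were lower too.

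Of 24 S phase genes, 4 were higher in both, close to the 16.9% of all genes tested (Pola1, Pcna, Slbp and Fen1; medians 0.15 and 0.22 over the list). Of 24 genes of G2 and M phase, 2 (Aurka and Anln) were lower, against 16.7% of all genes tested, with medians of 0.05 and 0.07 over the list. Aurka, a mitotic kinase, had medians of 16, 14.6 and 32.2 CPM in basal, progenitor and hormone-sensing libraries, with broad overlap. Of 14 cyclins, their kinases and cell cycle inhibitors, 11 were not called in both. The inhibitor genes Cdkn2a and Cdkn2b were the 2 lower in both, and the kinase gene Cdk6 the 1 higher. Neither count exceeded the share of all genes tested, 16.7% lower and 16.9% higher, and the list's medians were 0.17 and -0.23.

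Keratins, secretory vesicle genes and sterol genes were lower in part. Of 14 keratins, 5 were lower in both and 1, Krt23, was higher (2 without the pair of libraries with keratinocyte transcripts). Krt7, a simple epithelial keratin, had 2.22 to 13.0 CPM (median 6.96) in basal, 126 to 327 CPM (median 181) in progenitor and 501 to 1434 CPM (median 1215) in hormone-sensing libraries. Krt6a had 3.29 to 10.5 CPM in basal, 3.72 to 45.0 CPM in progenitor and 195 to 534 CPM in hormone-sensing libraries. Krt6a has a near-identical copy, Krt6b, so that reads of the pair may be shared out uncertainly. In a list of 20 peptide secretion genes, 14 were tested and 5 were lower, among them Syt7 and Rab27b, which act in vesicle release, and without the pair of libraries 1 was higher. Syt7 had medians of 1.37, 6.79 and 78.9 CPM in basal, progenitor and hormone-sensing libraries, and Rab27b had medians of 16.8, 31.0 and 123 CPM.

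Of 18 cholesterol synthesis genes, 5 were lower in both and 1, Cyp51, was higher (medians -0.60 and -0.29). Fdft1, squalene synthase, had medians of 22.4, 34.01 and 74.6 CPM in basal, progenitor and hormone-sensing libraries. Of 15 retinoid genes, 4 were higher and 1 lower in both (medians 2.32 and 2.06). Mesenchymal and motility genes had 4 higher and 3 lower of 20 (medians 2.31 and -0.15). NF-kB and chemokine genes had 2 higher and 2 lower of 18 (medians -0.78 and 0.62). Of all genes tested, 16.9% were higher and 16.7% lower in both. The counts of the mesenchymal and the NF-kB list lie near or below these shares, and no direction is drawn from them. With the pair left out, 5 retinoid genes were higher and 3 NF-kB and chemokine genes lower. Cd44, the hyaluronan receptor, was higher in both, with medians of 242, 218 and 73.3 CPM in basal, progenitor and hormone-sensing libraries. The calcium-binding protein gene S100a6 was lower in both, with medians of 173, 282 and 1324 CPM.

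**Figure D3:**
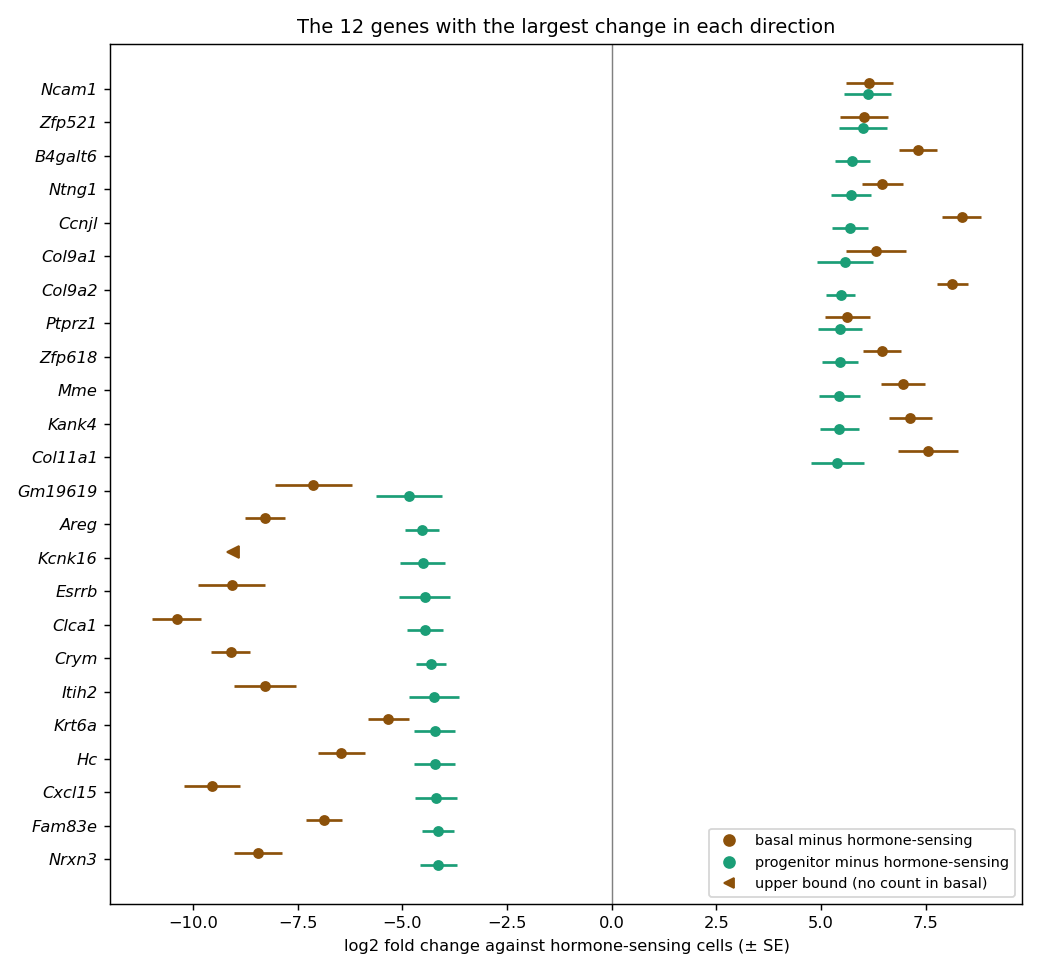
Log2 fold change with SE of the 24 genes with the largest change, 12 in each direction, in the basal (brown) and progenitor (green) contrast against hormone-sensing cells. The triangle is a bound for Kcnk16, with 0 counts in basal libraries; for Gm19619, Clca1, Ncam1 and Ptprz1 at least 1 group of 2 libraries had 0 counts, so the fitted value depends on the prior count.

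The genes with the largest change in both contrasts were chosen for their size and for no overlap between hormone-sensing and other libraries. Their values are a description. Ncam1, the neural cell adhesion molecule, had 6.29 to 11.1 CPM (median 8.63) in basal, 1.91 to 32.7 CPM (median 8.39) in progenitor and 0 to 0.418 CPM (median 0.162) in hormone-sensing libraries. Mme, which encodes the peptidase CD10, ran from 208 to 940.4 CPM (median 423) in basal, from 74.5 to 390.4 CPM (median 119) in progenitor and from 0.513 to 28.4 CPM (median 2.08) in hormone-sensing libraries. The collagen genes Col9a1, Col9a2 and Col11a1 had basal medians of 151, 424 and 546 CPM, progenitor medians of 88.0, 64.8 and 124 CPM, and hormone-sensing medians of 1.25, 1.22 and 1.45 CPM. That every basal and progenitor library stood above every hormone-sensing library was a condition of the choice. Zfp521, B4galt6, Ntng1, Ccnjl, Ptprz1, Zfp618 and Kank4 completed the 12, with log2 fold changes from 5.63 (Ptprz1) to 8.36 (Ccnjl) in basal cells and from 5.44 (Kank4) to 6.01 (Zfp521) in progenitor cells. The fitted value of Ptprz1 depends on the prior count, since luminal GFP-negative TEB libraries had 0 counts.

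On the lower side, Kcnk16, a potassium channel gene, had 0 counts in all 8 basal libraries, 0 to 0.602 CPM in progenitor and 3.23 to 8.39 CPM in hormone-sensing libraries. Basal cells were at least 528-fold lower by the mean of 5.09 CPM against 3 counts over the group of 8. Esrrb, an orphan nuclear receptor related to the estrogen receptor, had 0 to 0.194 CPM in basal, 0.224 to 3.42 CPM in progenitor and 3.72 to 70.0 CPM in hormone-sensing libraries. Crym, a thyroid hormone binding protein, had medians of 0.342, 11.9 and 242 CPM in basal, progenitor and hormone-sensing libraries. Cxcl15, a chemokine, had medians of 0.279, 10.5 and 249 CPM. Itih2, Hc, Clca1, Fam83e, Nrxn3 and Gm19619, the remainder beside Areg and Krt6a, had progenitor contrasts from -4.84 (Gm19619) to -4.14 (Nrxn3) on the log2 scale.

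Genes used as markers of basal and progenitor cells also appeared among the members. Oxtr, the oxytocin receptor, ran from 95.1 to 1878 CPM (median 898) in basal, from 13.5 to 115 CPM (median 47.8) in progenitor and from 0.179 to 11.3 CPM (median 1.04) in hormone-sensing libraries. Lcn2, lipocalin 2, had medians of 355, 1768 and 27.0 CPM in basal, progenitor and hormone-sensing libraries. Basal identity markers summed to 7288.4 to 38250.6 CPM in basal, 223.1 to 1040.6 CPM in progenitor and 163.0 to 3752.4 CPM in hormone-sensing libraries, and their part in the result was not tested. Of the 14 basal identity genes, 3 (Oxtr, Tagln and Lgr5) were higher in both, 5 without the pair of libraries with keratinocyte transcripts. The median progenitor contrast of the list was 0.03. Of all genes tested, 16.9% were higher in both. Of the 14 luminal progenitor identity genes, 5 were higher in both, and in the basal contrast alone 5 were higher and 6 lower. Of the 13 hormone-sensing identity genes tested, 11 were lower and 1 higher in both, and 0 were higher without the pair of libraries. The contractile genes Acta2, Myh11, Mylk and Cnn1 did not pass the test between progenitor and hormone-sensing cells.

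Markers of cells outside the gates were read beside these results. Immune markers had 1 of 15 tested members higher in each contrast and summed to at most 16.9 CPM in basal, 11 CPM in progenitor and 4.8 CPM in hormone-sensing libraries. Fibroblast markers summed to 1025.6 to 7002.4 CPM in basal, 27.7 to 295.4 CPM in progenitor and 18.5 to 355.9 CPM in hormone-sensing libraries; 13 of 14 were higher in the basal contrast, and 1, Pdgfra, was higher in both. Endothelial and pericyte markers had 1 member higher and 2 lower of 14, adipocyte markers 1 lower of 6, and keratinocyte markers 2 lower (Ivl and Sprr1a) of 9. With the pair left out, 1 keratinocyte marker was higher and 0 adipocyte markers lower. The part of these cells in the results was not tested.

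Tissue of origin changed the size of many differences. The basal contrast differed between TEB and duct for 4770 genes (26.3% of those tested), among them 884 members on the higher side and 944 on the lower. The progenitor contrast differed between the tissues for 1922 genes (10.6%), among them 414 and 354 members. Between the Elf5 and PR-cre models the basal contrast differed for 1139 genes (6.29%) and the progenitor contrast for 1676 (9.26%). Without the pair of libraries with keratinocyte transcripts these counts were 5358, 2125, 1468 and 1491.

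For Igf1r the difference in tissue was present in both contrasts. Its basal contrast was 6.64 in TEBs and 4.27 in ducts, and its progenitor contrast 5.94 and 3.38 (TEB minus duct in a single fit, 2.49 ± 0.58 and 2.71 ± 0.58, adjusted p = 0.00584 and 0.00924). Without the pair of libraries with keratinocyte transcripts the TEB minus duct differences of Igf1r were 1.49 and 1.64 (adjusted p = 0.000242 and 0.000513). In hormone-sensing libraries Igf1r averaged 0.942 and 2.71 CPM in TEBs and 13.1 and 10.8 CPM in ducts, for GFP-negative and YFP-positive cells. Irs2 went the other way, with a basal contrast of 1.69 in TEBs and 3.77 in ducts and a progenitor contrast of 1.95 and 3.11.

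**Figure D4:**
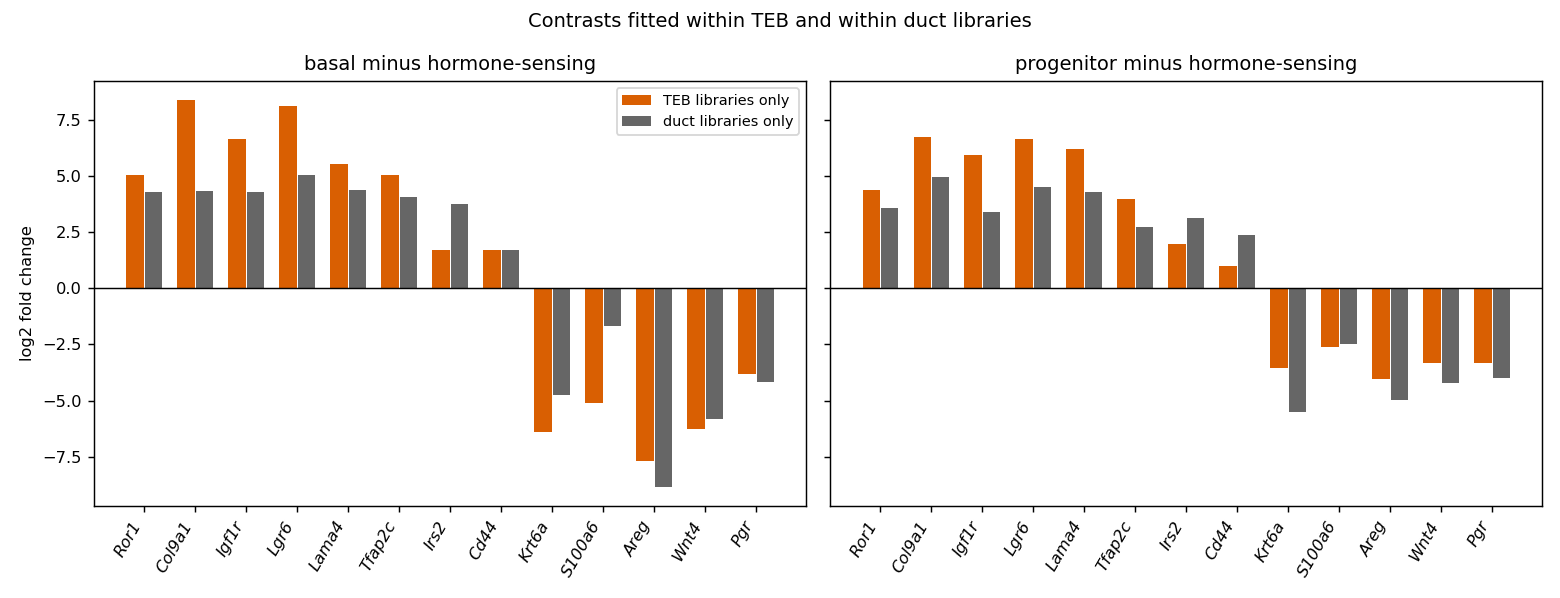
Log2 fold change of 13 genes in the basal (left panel) and progenitor (right panel) contrast against hormone-sensing cells, fitted within TEB libraries (orange) and within duct libraries (grey). The bars of each gene point the same way in both tissues, and S100a6 stands at -5.12 in TEBs and -1.69 in ducts in the basal contrast.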

How the data were processed

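The authors deposited raw counts for each gene and library, made with featureCounts on the mm10 build, per the submitters' processing notes. Not given in the sources used here are the aligner, annotation, strand setting and handling of multiply matching reads. Libraries were made with a TruSeq RNA v2 kit, per the labels' protocols. The tables list 27179 genes by Entrez identifier, of which 25275 were given RefSeq symbols and 18 GENCODE symbols; 1886, with 1.22% of counts, have none.

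Counts were analysed in R 4.3.3 with edgeR 4.0.16. The filterByExpr filter, applied to 12 groups with a minimum count of 10 and a minimum total of 15, kept 18109 genes, and libraries were scaled by TMM. A robust quasi-likelihood model with 3 populations and a block of 4 levels, model by tissue, was used on the 24 libraries (18 residual degrees of freedom), with Benjamini-Hochberg adjustment across the genes tested. This test gave every adjusted p printed without another name. Differences between tissues and models were contrasts of 12 group means. Standard errors were the log2 fold change over the square root of the F statistic. CPM use TMM-scaled library sizes, and floors of 3 counts cover counting error only. Reads carry no molecular identifiers. The models share no library, and libraries of different gates may come from the same preparation.

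Named genes were the 12 with the largest smaller absolute log2 fold change in each direction, among symbols called in both with and without the 2 libraries with keratinocyte transcripts, with no overlap and at least 5 CPM on the higher side, plus up to 4 members per list and the label check genes. Other list members are named only to account for a count, or were chosen after their values were seen. The members and lists were chosen with earlier results of these data known. Alternatives were median-of-ratios scaling, no filter, 12 group means, additive terms, a replicate block, separate fits of 16 libraries, DESeq2 1.42.0 and leaving out each library. Scripts were tested on simulated data. Some genes are not reported here. Promoter sequences are from RefSeq GRCm38.p6, and 13236 tested genes had one.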

Additional observations from a re-analysis of the deposited data

Results flagged for a closer look

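A library far from the other 7 of its population was found in 29 of 225 sets of 8 values (75 genes in 3 populations). The rule flags about 1 in 20 by chance only for 8 values of a single normal distribution. The values here were CPM pooled over tissues and models, so the 29 cannot be set against that rate. Of the 29, 21 were in hormone-sensing libraries. Of the 21, 13 were in GFP-negative duct replicate 2, which holds the keratinocyte transcripts, and 6 in YFP-positive duct replicate 1. Apart from the rest stood Calcrl (2.02 CPM), Ccn1 (459 CPM), Ccn2 (73.5 CPM), Egfr (50.9 CPM), Ghr (53.8 CPM), Krt14 (1115 CPM), Oxtr (11.3 CPM), Ptprz1 (5.13 CPM), Ror1 (6.09 CPM), Sox5 (2.3 CPM), Tfap2c (44.6 CPM), Tgfb2 (5.47 CPM) and Wwtr1 (114 CPM) in the hormone-sensing library luminal GFP-negative duct replicate 2. Others were Hey1 (50.2 CPM), Kank4 (8.34 CPM), Mme (28.4 CPM), Ntng1 (2.19 CPM), Sox10 (26 CPM) and Zfp618 (0.348 CPM) in the hormone-sensing library luminal YFP-positive duct replicate 1. The remaining values were Fgfr2 (258 CPM) and Prlr (927 CPM) in the progenitor library luminal GFP-positive duct replicate 2, Ccn1 (2299 CPM) in the library basal Elf5-model duct replicate 2, Ccnjl (0.352 CPM) in the hormone-sensing library luminal YFP-positive TEB replicate 1, Clca1 (7.53 CPM) in the progenitor library luminal GFP-positive TEB replicate 2, Esrrb (0.194 CPM) in the library basal PR-cre-model TEB replicate 2, Gm19619 (14 CPM) in the hormone-sensing library luminal GFP-negative duct replicate 1, Hc (1.82 CPM) in the library basal Elf5-model duct replicate 1, Krt14 (267 CPM) in the progenitor library luminal YFP-negative TEB replicate 2 and Prlr (11.8 CPM) in the library basal PR-cre-model duct replicate 2.

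The size of a contrast differed between tissues or models, by edgeR's quasi-likelihood test of the difference itself, in 65 of 300 differences (75 genes, 4 differences each). Values are differences of log2 fold changes. Those between models cannot be told apart from differences between reporter-positive and reporter-negative gates. For Ncam1 and Ptprz1 a hormone-sensing group of 2 libraries had 0 counts, so these values depend on the prior count. In basal against hormone-sensing cells, the TEB minus duct differences were B4galt6 (2.23), Col9a1 (3.95), Ptprz1 (4.93), Kank4 (2.00), Col11a1 (3.99), Itih2 (-2.47), Krt6a (-1.65), Itgb1 (-0.44), Epcam (0.38), Krt8 (-1.67), Lcn2 (1.35), Hey1 (3.64), Tfap2c (1.02), Igf1r (2.49), Irs2 (-1.97), Ror1 (1.19), Sox5 (2.71), Sox10 (1.84), Runx2 (2.59), Aurka (1.44), Lama4 (1.20), Spry2 (1.42), Etv5 (1.09), Spry4 (0.90), Lgr6 (3.55), Bambi (1.39), Wwtr1 (-0.62), S100a6 (-3.44), Krt7 (-2.07) and Fdft1 (0.47). The Elf5 model minus PR-cre model differences in basal against hormone-sensing cells were Ncam1 (5.42), B4galt6 (1.88), Zfp618 (2.33), Kank4 (2.16), Elf5 (3.72), Irs2 (-1.33), Wnt5a (-1.48), Ror1 (-2.72) and Spry4 (0.57). In progenitor against hormone-sensing cells, the TEB minus duct differences were B4galt6 (2.08), Ptprz1 (5.28), Krt6a (2.01), Esr1 (0.80), Itgb1 (-0.29), Krt14 (7.46), Wnt4 (0.97), Tfap2c (1.26), Igf1r (2.71), Irs2 (-0.99), Ghr (1.51), Tcf7l1 (2.48), Lama4 (1.99), Ccn2 (4.78) and Cd44 (-1.36). The Elf5 model minus PR-cre model differences in progenitor against hormone-sensing cells were Ncam1 (3.69), Zfp618 (1.85), Elf5 (1.02), Esr1 (1.26), Krt14 (-6.81), Krt8 (0.76), Wnt4 (0.86), Irs2 (-1.19), Ror1 (-1.58), Etv5 (-1.09) and Fgfr2 (1.29).

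Without the pair of libraries with keratinocyte transcripts, 0 of the 65 differences changed sign and 16 no longer passed the test. In basal against hormone-sensing cells, the TEB minus duct differences that lost their call were B4galt6 (1.47), Kank4 (1.31), Lcn2 (0.77), Sox5 (1.17), Sox10 (1.05), Runx2 (1.40), Lama4 (0.68), Lgr6 (1.74) and Bambi (0.73). In progenitor against hormone-sensing cells, B4galt6 (1.35), Itgb1 (-0.27) and Ccn2 (2.64) lost the call for tissue, and Ncam1 (3.78), Krt8 (0.50), Wnt4 (0.52) and Fgfr2 (1.22) the call for model. Others kept the call and moved by over 1.5 times. Between tissues these were Tfap2c (0.54), Igf1r (1.49) and Ror1 (0.79) in the basal contrast and Krt14 (2.57), Tfap2c (0.82), Igf1r (1.64), Tcf7l1 (1.26) and Cd44 (-2.06) in the progenitor contrast. Between models they were Zfp618 (4.46) in the basal contrast, and Zfp618 (3.94) and Krt14 (-1.91) in the progenitor contrast.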

How the results depend on the processing

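Under every alternative the counts of genes called in both contrasts stayed within 1.5 times the reported counts, and 0 genes were called in opposite directions. Counts higher and lower in both were 3110 and 3027 with median-of-ratios scaling, 2669 and 3199 without a filter, 3443 and 3456 with 12 group means, 3042 and 3000 with additive terms, 2734 and 3268 with each contrast on its own 16 libraries, and 3293 and 3141 with DESeq2. Leaving out each library in turn gave 2615 to 3026 higher and 2881 to 3335 lower. For the named genes, 4793 of the values under alternatives kept direction and call. Those that changed were Hey1 in the basal contrast, given above, and a gained call in the progenitor contrast for Epcam (4 settings) and Krt14 (log2 3.23 without the 2 libraries with keratinocyte transcripts and 4.12 without GFP-negative duct replicate 2); the cause was not tested. Deviations of same-numbered libraries correlated at 0.01 to 0.15. With 2 libraries per group these values cannot decide whether replicate numbers pair the libraries. A replicate block gave 2971 higher and 2915 lower in both, and 6241, 5519, 4655 and 4300 genes in the 4 one-contrast counts (basal higher and lower, progenitor higher and lower).

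Groups of 2 libraries limit the tests within a model or tissue, where leaving out 1 library gave 1491 to 1899 (Elf5), 2134 to 2459 (PR-cre), 1639 to 2258 (duct) and 2488 to 2764 (TEB) genes higher in both.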
